A study of Homo sapiens with 6 samples.

Results

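Nudix hydrolases are enzymes that cleave a nucleoside diphosphate linked to another group, and 10 of their genes (NUDT1, NUDT2, NUDT3, NUDT5, NUDT7, NUDT8, NUDT9, NUDT12, NUDT19 and NUDT21) were followed here among the 20308 genes of the deposited tables. The members were taken by name, but the set was chosen by a measured value: the difference of NUDT8 between the groups in these libraries had been seen first. Every difference of a member between the groups is therefore given as a description, with no p-value. All 10 had a row in the tables by Ensembl identifier, 9 had a mean of at least 0.5 FPKM (fragments scaled to transcript length and to each library's mapped fragments) and were fitted, and NUDT7 was below that level.

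The RNA came from LNCaP-AI, a human prostate cancer line kept under androgen deprivation and used as a model of castration-resistant prostate cancer (CRPC). The 3 shMETTL1 libraries are from cells made to silence METTL1 stably with a hairpin. The 3 shscramble libraries, labelled as control, are from cells with a scrambled hairpin. All 6 carry the treatment label of androgen deprivation therapy. METTL1 catalyses the m7G methylation of tRNA and other RNAs, and the comparison asks which mRNAs differ once it is silenced. The study lists 1 hairpin sequence for METTL1, and its methods call the replicates behind its data biological, without naming these libraries. The labels do not state whether a group's 3 libraries are separate cultures, and p-values measure only the spread between them.

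The Nudix family is known for keeping house among small diphosphates. Some members clean the nucleotide pool, some split ADP-ribose, NADH or coenzyme A (CoA), and some act on the 5' end of mRNA, where they remove a cap. The m7G of the mRNA cap is placed by a different enzyme from METTL1, and DCP2, itself a Nudix protein, is the main enzyme that takes that cap off.

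METTL1 itself was checked first. It had 9.02 ± 1.30 FPKM in shMETTL1 and 17.8 ± 3.62 FPKM in shscramble (SD, n = 3 each), with groups that did not overlap. The limma test on FPKM did not call it (log2 fold change -0.93, adjusted p = 0.127), edgeR on the estimated counts did (adjusted p = 0.0368), and over 17 alternatives the range was 0.00476 to 0.364. METTL1 rested on few estimated counts, 9.52, 28.55 and 20.5 in shMETTL1 and 36.45, 48.6 and 65.15 in shscramble libraries. Its ratio of estimated count to FPKM differed 2.72-fold between libraries and was lowest in shMETTL1 replicate 1. A library summed to 3389897 to 3604835 estimated counts, of which mitochondrial transcripts took 11.2% to 13.1%. All 11 prostate luminal markers were measured, and their summed FPKM was 2101 to 2364 in shMETTL1 and 2601 to 2681 in shscramble libraries. The sum does not describe each marker, since 6 had a positive and 5 a negative log2 fold change, with a median of 0.07. Limma called 1 of the 11 and edgeR 3, all lower, beside 0.123% and 6.33% of all genes tested. Of the markers of other cell types, KRT5, LUM, DCN, PTPRC, CD3E, MS4A1, CDH5, KDR and CHGA were listed at 0 in every library, and COL1A1 and CD68 were the best covered. The 5 immune markers summed to 6.43 to 8.11 FPKM in shMETTL1 and 11.8 to 16.8 FPKM in shscramble libraries, nearly all of it CD68, and the 5 fibroblast markers, nearly all COL1A1, overlapped, at 5.11 to 11.2 FPKM in shMETTL1 and 7.94 to 13.5 FPKM in shscramble libraries. The part of these shifts in the results was not tested. Across genes, the lowest correlations of log2 FPKM with the shMETTL1 libraries, 0.925 to 0.932, were those of shscramble replicate 1. With its own group that library correlated at 0.936 and 0.946. Shscramble replicate 2 correlated more with the shMETTL1 libraries, at 0.946 to 0.953, than with its own group, at 0.936 and 0.945. Without shscramble replicate 2, the log2 fold changes of the members were 1.62 for NUDT8, 0.27 for NUDT19, -0.03 for NUDT5, -0.06 for NUDT3, -0.13 for NUDT1, -0.26 for NUDT12, -0.28 for NUDT2, -0.43 for NUDT21 and -0.47 for NUDT9, each with the sign it had in all 6 libraries.

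NUDT8 was 2.77-fold higher in shMETTL1 cells. It was the only member called over all genes tested, 1 of 9 tested, where 15 of 12156 genes (0.123%) were called in all, 0.0494% higher and 0.074% lower. A call means an adjusted p under 0.05 by limma on log2(FPKM + 0.5), a scale that understates the change of low values. Because the call led to the choice of the gene, nothing is read from its share. With the looser call of the study (a fold above 1.5 at an unadjusted p under 0.05), NUDT8 was again the 1 member past both, where 8.97% of all genes were (4.59% higher and 4.38% lower). Of the other 8 tested members 7 had a lower mean in shMETTL1 cells and 1 a higher mean, and none was called by limma or by edgeR. The median log2 fold change was -0.23 over the 9 tested members and -0.24 without NUDT8, beside 0.02 over all genes tested.

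**Figure D1:**
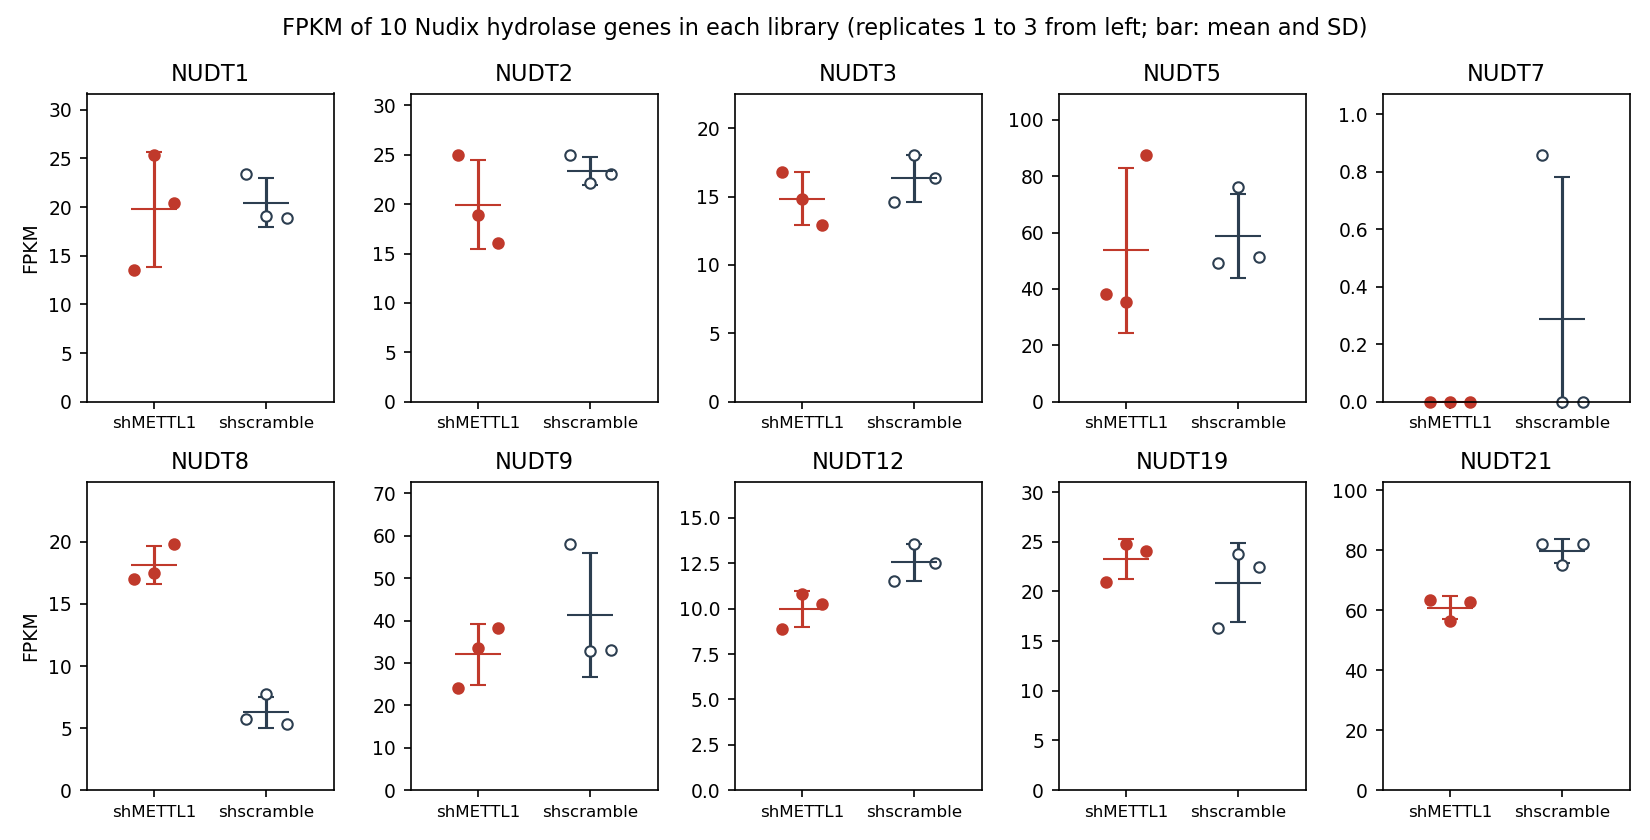
FPKM of the 10 Nudix hydrolase genes in each library, 1 panel a gene, with shMETTL1 (filled points) at the left and shscramble (open points) at the right of each panel and the group mean and SD as bars. The 3 shMETTL1 libraries of NUDT8 lie between 17.05 and 19.9 FPKM, above all shscramble libraries, and those of NUDT21 lie between 56.4 and 63.3 FPKM, below all shscramble libraries.

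NUDT7, NUDT8 and NUDT19 encode CoA diphosphatases, which split CoA and its acyl esters. In mouse, NUDT8 acts in mitochondria and NUDT7 and NUDT19 in peroxisomes. NUDT8 (ENSG00000167799) is a short gene at chr11:67627938-67629930 of GRCh38 on the minus strand, with 2 annotated coding transcripts of 728 and 809 bases and no annotated gene across it. It had 17.05, 17.5 and 19.9 FPKM in shMETTL1 replicates 1, 2 and 3, against 5.76, 7.72 and 5.36 FPKM in shscramble replicates 1, 2 and 3. The lowest shMETTL1 library thus stood well above the highest shscramble library, shscramble replicate 2. Means were 18.1 ± 1.51 FPKM in shMETTL1 and 6.28 ± 1.26 FPKM in shscramble cells (SD, n = 3 each), and the log2 fold change was 1.47 (standard error 0.21), in place 57 from the top among the 12156 genes tested.

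The estimated counts of NUDT8 differed alike, at a low depth. They were 44.9, 50.8 and 53.8 in the shMETTL1 libraries, against 19.6, 21.7 and 14.9 in the shscramble libraries. Again no library overlapped, and edgeR gave a log2 fold change of 1.34, a 2.53-fold difference. NUDT8 was the only 1 of 9 members that edgeR called, where it called 6.33% of 11248 genes (2.68% higher and 3.65% lower). The ratio of estimated count to FPKM, which moves when reads are assigned to transcripts of other lengths, was 2.63, 2.90 and 2.71 in shMETTL1 and 3.41, 2.81 and 2.78 in shscramble libraries. It was highest in shscramble replicate 1, and its range of 1.30-fold was smaller than the difference between the groups. In bulk RNA a higher level per cell cannot be told apart from more cells that express the gene.

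The log2 fold change of NUDT8 was positive in all 17 alternatives, from 1.28 to 1.62, while its call did not hold in all. Its sign could not turn with 1 library left out, since its groups did not overlap. The FPKM filters and the replicate block leave the value as it is. NUDT8 was called in 9 of the 17. The call ended when any library other than shscramble replicate 2 was left out (1.38 to 1.51 in log2), with a pseudocount of 0.1, without a filter on low values and with the replicate number as a block (1.47). Without shscramble replicate 2 it was the 1 member called, at 1.62, where 1.56% of all genes were. The 4 count-based settings all called it, between 1.28 and 1.35.

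**Figure D2:**
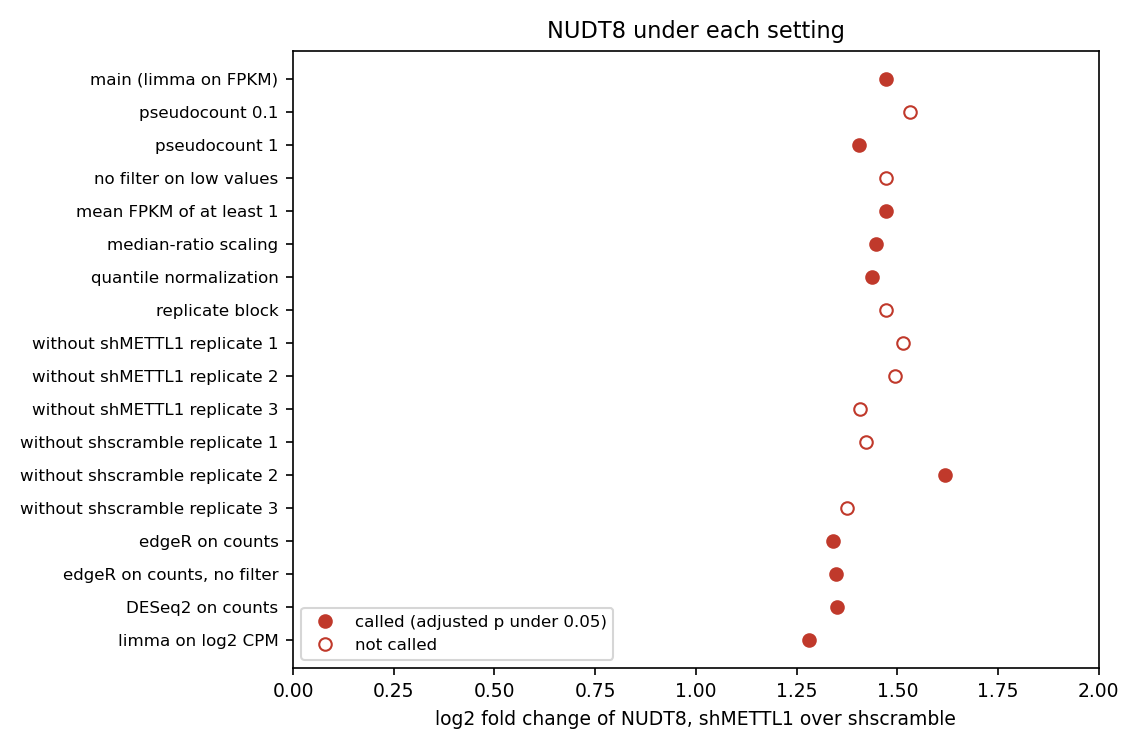
Log2 fold change of NUDT8 (shMETTL1 over shscramble; horizontal axis) in the main fit and in 17 alternatives, filled where it was called and open where it was not. All points lie between 1.28 and 1.62, and 8 of the alternatives are open.

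The promoter window of NUDT8 is shown because it belongs to the member with the largest difference, beside that of NUDT21, the member with the most negative one. RefSeq windows on GRCh38.p14, from 250 bases before to 50 bases after the start, were given for 8 of the 10 members. Capitals mark each GC box, searched as GGGCGG on both strands (CCGCCC on the strand printed), the element bound by SP1 and its relatives. The NUDT8 window is chr11:67629888-67630187 and the NUDT21 window chr16:56451283-56451582, both on the minus strand and printed 5' to 3'.
NUDT8: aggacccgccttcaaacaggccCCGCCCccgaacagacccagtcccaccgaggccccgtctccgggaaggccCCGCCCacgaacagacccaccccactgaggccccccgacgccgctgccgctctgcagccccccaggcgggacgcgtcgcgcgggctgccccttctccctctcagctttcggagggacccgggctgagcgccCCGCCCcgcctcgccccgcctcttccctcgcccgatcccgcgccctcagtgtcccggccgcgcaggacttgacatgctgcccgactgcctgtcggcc
NUDT21: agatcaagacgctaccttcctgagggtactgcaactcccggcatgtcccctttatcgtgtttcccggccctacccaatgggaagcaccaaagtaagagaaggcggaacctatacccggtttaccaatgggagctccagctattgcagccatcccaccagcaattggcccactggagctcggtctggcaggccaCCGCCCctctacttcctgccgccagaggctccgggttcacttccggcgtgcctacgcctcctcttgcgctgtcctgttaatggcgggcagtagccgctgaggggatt

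The NUDT8 window is made of 75.3% G and C and holds 3 GC boxes, a number that 15.8% of the 35116 RefSeq windows reach. It is not the richest of the members, since the window of NUDT7, a gene hardly detected here, holds 8, as many as 0.812% of windows reach. The NUDT21 window is made of 59.7% G and C and holds 1 GC box, as 45.0% of all windows do at least once. It also holds 3 CCAAT boxes (CCAAT on either strand), an element found at least once in 34.6% of windows. The NUDT2 window holds 3 CCAAT boxes as well, and 1 of the 2 windows of NUDT1 holds 1. The core of the amino acid response element (TGATGNAA, 3.6% of windows), the CRE (TGACGTCA, 1.8%) and the TATA box (TATAAA, 11.5%) were found in none of the member windows given. The antioxidant response element core (TGACNNNGC, 13.3%) was found in the window of NUDT5 alone, and the E-box (CACGTG, 7.3%) in 1 of the 2 windows of NUDT1. All these letters were searched on both strands, and a match describes the sequence only.

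Of the other CoA diphosphatases, NUDT19 had no difference of the size seen for NUDT8, and NUDT7 was too low to be tested. NUDT19 (ENSG00000213965; GRCh38 chr19:32691961-32713796, plus strand) had 21.0, 24.8 and 24.05 FPKM in shMETTL1 libraries, against 16.3, 23.8 and 22.4 FPKM in shscramble libraries. The groups overlapped, with shscramble replicate 1 the lowest of all 6. The log2 fold change was 0.17 (standard error 0.19), or 0.01 without shscramble replicate 1. The annotation holds 3 pseudogenes of NUDT19, which were not analysed here and could share its reads. NUDT7 (ENSG00000140876; GRCh38 chr16:77722492-77742260, plus strand) was listed at 0 in all 3 shMETTL1 libraries and at 0.858, 0 and 0 FPKM in shscramble replicates 1, 2 and 3. Its only reads were an estimated count of 1.87 in shscramble replicate 1, so no difference could be measured for it at this depth.

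NUDT12 (ENSG00000112874; GRCh38 chr5:103548855-103562793, minus strand) encodes a peroxisomal enzyme that splits NADH and removes NAD caps from RNA. It had 8.87, 10.8 and 10.3 FPKM in shMETTL1 libraries, against 11.5, 13.6 and 12.5 FPKM in shscramble libraries. By FPKM the groups did not overlap, which was true of 1 higher and 2 lower members of the 9 tested and of 19.8% of all genes tested (10.5% higher and 9.33% lower). By estimated count they overlapped, with 122, 127 and 112 in shMETTL1 and 123, 135.5 and 145 in shscramble libraries, and NUDT8 was the 1 of 9 members whose groups did not overlap, as for 24.9% of genes (13.8% higher and 11.1% lower). The log2 fold change of NUDT12 was -0.32 by FPKM (standard error 0.19) and -0.21 by edgeR.

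The ADP-ribose pyrophosphatases NUDT5 and NUDT9, the second of which acts in mitochondria, had ranges within each group that exceeded the difference between the group means. NUDT5 (ENSG00000165609; GRCh38 chr10:12165325-12196144, minus strand) had 38.1, 35.5 and 87.5 FPKM in shMETTL1 libraries, against 49.2, 76.1 and 51.2 FPKM in shscramble libraries. The high libraries were shMETTL1 replicate 3 and shscramble replicate 2, and the groups overlapped. Its estimated counts spread much less, with 208, 219 and 285.5 in shMETTL1 and 229.9, 275 and 261.5 in shscramble libraries. The log2 fold change was -0.23 (standard error 0.33), and it ran from -0.64 without shMETTL1 replicate 3 to 0.00 without shMETTL1 replicate 2. The body of NUDT5 is overlapped on the opposite strand by SEC61A2 and CDC123, and since it is not stated whether strand was used, reads in the shared stretch cannot be told apart.

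NUDT9 (ENSG00000170502; GRCh38 chr4:87422582-87459454, plus strand) had 24.2, 33.5 and 38.3 FPKM in shMETTL1 libraries, against 58.1, 32.7 and 33.0 FPKM in shscramble libraries. Shscramble replicate 1 was far above the rest, and the other 2 shscramble libraries lay within the range of shMETTL1. The log2 fold change was -0.33 (standard error 0.26), or -0.06 without shscramble replicate 1. In estimated counts that library stood out less, at 229 against 176 and 188 in the other shscramble libraries and 155, 154 and 185 in shMETTL1 libraries. NUDT9 has 1 annotated pseudogene, which was not analysed here and could share its reads.

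The ratio of estimated count to FPKM varied between libraries to a different degree from member to member, with no gap between stable and unstable genes. For NUDT3 and NUDT19, each with 1 annotated coding transcript, the highest library exceeded the lowest by 1.00-fold and 1.01-fold. For NUDT5, with 6 coding transcripts of 410 to 3433 bases, it did so by 1.89-fold, for NUDT9 by 1.63-fold, for NUDT12 by 1.38-fold and for NUDT21 by 1.20-fold. The number of transcripts did not order the members, since NUDT1, with 7 coding transcripts, varied by 1.16-fold and NUDT2, with 4, by 1.04-fold. The lowest ratio of NUDT5, 3.26, was in shMETTL1 replicate 3, and that of NUDT9, 3.94, in shscramble replicate 1, the same libraries in which their FPKM was highest.

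**Figure D3:**
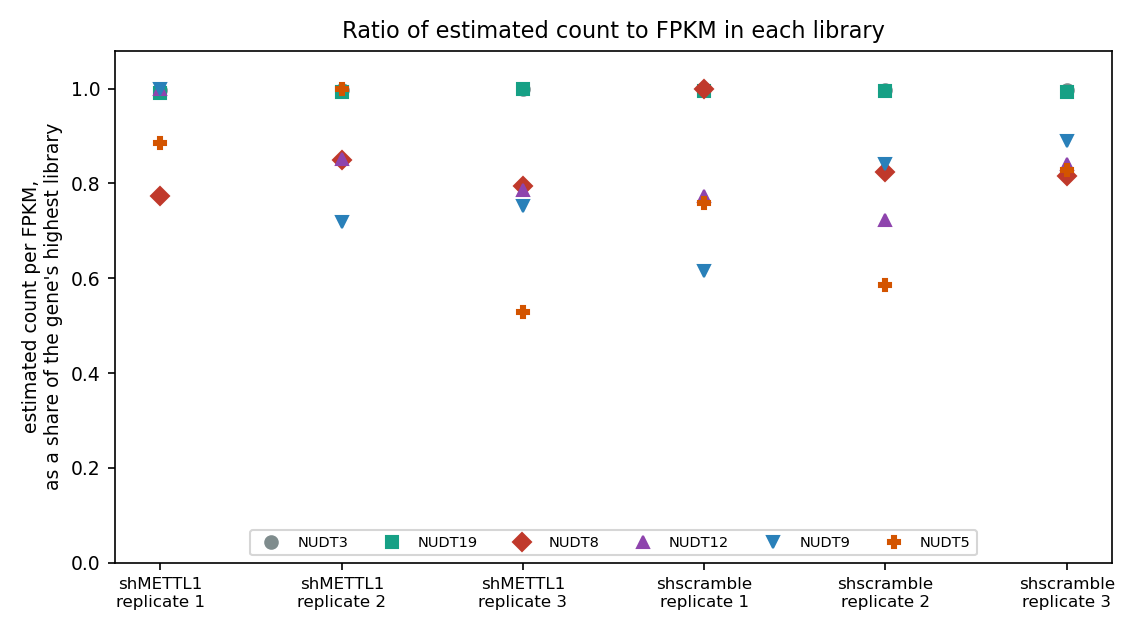
Ratio of estimated count to FPKM for 6 Nudix genes in each library (horizontal axis, shMETTL1 libraries first), as a share of the highest library of that gene. NUDT3 and NUDT19 stay flat, within 1.01-fold, while NUDT5 spans 1.89-fold and NUDT9 1.63-fold.

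NUDT1 and NUDT2 act on nucleotides in the pool. NUDT1 (ENSG00000106268; GRCh38 chr7:2242222-2251146, plus strand), also called MTH1, breaks down oxidised purine nucleotides before a polymerase can use them. It had 13.6, 25.3 and 20.5 FPKM in shMETTL1 libraries, against 23.4, 19.1 and 18.9 FPKM in shscramble libraries. The shMETTL1 libraries held both the lowest and the highest value, and the log2 fold change of -0.08 (standard error 0.24) turned to 0.16 without shMETTL1 replicate 1 and to 0.01 without shscramble replicate 1. NUDT2 (ENSG00000164978; GRCh38 chr9:34329506-34343713, plus strand), which splits diadenosine tetraphosphate, had 25.0, 18.9 and 16.1 FPKM in shMETTL1 libraries, against 24.9, 22.2 and 23.04 FPKM in shscramble libraries. The groups overlapped through shMETTL1 replicate 1, the highest of all 6, and its log2 fold change was -0.24 (standard error 0.20).

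NUDT3 (ENSG00000272325; GRCh38 chr6:34279679-34392674, minus strand) cleaves diphosphoinositol polyphosphates and has also been described as a decapping enzyme. It had 16.8, 14.8 and 12.9 FPKM in shMETTL1 libraries, against 14.6, 18.03 and 16.4 FPKM in shscramble libraries, with overlapping groups and a log2 fold change of -0.14 (standard error 0.19). NUDT3 carried 555.5 to 774 estimated counts per library, after NUDT21 the most of any member, on an annotated transcript of 9905 bases. The readthrough gene RPS10-NUDT3 shares its strand and its locus, so reads can be split between them. RPS10-NUDT3, singled out after its values were seen, had 1.26, 0.00 and 4.13 FPKM in shMETTL1 libraries, against 21.2, 14.2 and 6.30 FPKM in shscramble libraries. The groups did not overlap. Limma did not call it (adjusted p = 0.133), edgeR did (log2 fold change -2.91, adjusted p = 0.0153; 1.15e-05 to 0.338 over the alternatives), and its estimated counts reached at most 60.3. RPS10, the ribosomal protein gene at its other end, averaged 813 ± 31.5 FPKM in shMETTL1 and 863 ± 71.0 FPKM in shscramble cells (SD, n = 3 each), and was not called (limma, adjusted p = 0.773).

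NUDT21 (ENSG00000167005; GRCh38 chr16:56429133-56452199, minus strand) encodes the smaller subunit of cleavage factor Im. This protein has a Nudix fold without hydrolase activity and binds pre-mRNA ahead of the polyadenylation site. It had 63.3, 56.4 and 62.8 FPKM in shMETTL1 libraries, against 82.1, 75.2 and 82.2 FPKM in shscramble libraries. Every shMETTL1 library was below every shscramble library, at means of 60.8 ± 3.88 FPKM in shMETTL1 and 79.9 ± 4.02 FPKM in shscramble cells (SD, n = 3 each). The log2 fold change was -0.39 (standard error 0.13), a 1.31-fold difference, and it stayed between -0.43 and -0.34 in all 17 alternatives. By estimated count the groups touched. The values were 1123, 1017 and 1159 in shMETTL1 libraries and 1480, 1158 and 1451 in shscramble libraries, where shscramble replicate 2 was the low one. NUDT21 had the most estimated counts of the members, and neither limma nor edgeR called it. OGFOD1, which lies across it on the opposite strand, had 29.8 ± 1.93 FPKM in shMETTL1 and 26.9 ± 5.57 FPKM in shscramble cells (SD, n = 3 each; adjusted p = 0.719 by limma).

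**Figure D4:**
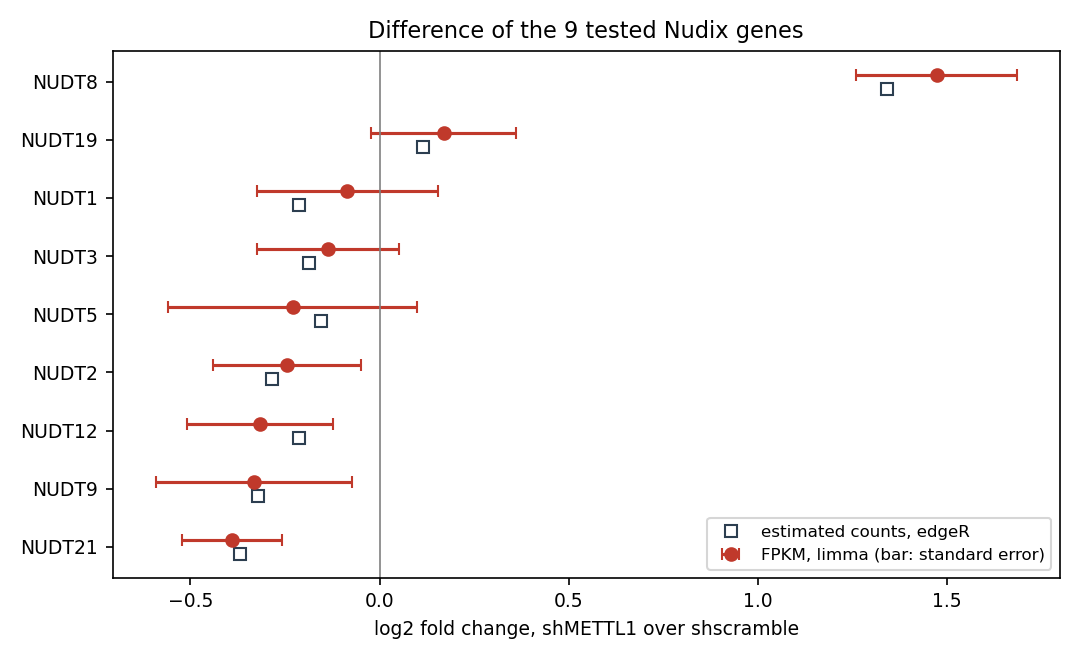
Log2 fold change (shMETTL1 over shscramble) of the 9 tested Nudix genes by limma on FPKM (filled, with its standard error) and by edgeR on the estimated counts (open squares). NUDT8 lies at 1.47 and 1.34, and the other 8 genes between -0.39 and 0.17.

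FPKM is a level per length, so the members can be ranked by it. In shMETTL1 cells NUDT21 was the highest at 60.8 FPKM, followed by NUDT5 (53.7), NUDT9 (32.02), NUDT19 (23.3), NUDT2 (20.0), NUDT1 (19.8), NUDT8 (18.1), NUDT3 (14.8), NUDT12 (9.98) and NUDT7. From NUDT21 down to NUDT8 every neighbouring pair had overlapping libraries, and NUDT8, NUDT3, NUDT12 and NUDT7 were each apart from the next. In shscramble cells the order was NUDT21 (79.9), NUDT5 (58.8), NUDT9 (41.3), NUDT2 (23.4), NUDT19 (20.9), NUDT1 (20.5), NUDT3 (16.3), NUDT12 (12.5), NUDT8 (6.28) and NUDT7 (0.286). There the libraries of NUDT9 and NUDT2, of NUDT1 and NUDT3, and of every neighbouring pair from NUDT3 down were apart. NUDT8 thus stood above NUDT3 and NUDT12 in shMETTL1 cells and below both in shscramble cells. NUDT8 made up 7.48%, 7.37% and 6.80% of the summed FPKM of the 10 members in shMETTL1 libraries, against 2.01%, 2.68% and 2.02% in shscramble libraries. The summed FPKM itself overlapped, at 228, 237.5 and 292 in shMETTL1 and 287, 288.5 and 265 in shscramble libraries.

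The genes beside NUDT8 on chromosome 11 had no such difference where one could be tested. TBX10, the next gene at higher coordinates and 1372 bases away, was at 0.471, 0 and 0.332 FPKM in shMETTL1 and at 0.641, 0 and 0 FPKM in shscramble libraries, too low to be tested. NDUFV1, a complex I subunit gene 15383 bases away and the nearest coding gene on the other side, had 71.5 ± 5.53 FPKM in shMETTL1 and 68.2 ± 8.67 FPKM in shscramble cells (SD, n = 3 each), and a log2 fold change of 0.07 (limma, adjusted p = 0.858). The pseudogene DOC2GP between them was not analysed here.

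The genes with a pattern most like that of NUDT8 were found by the root mean square difference of log2(FPKM + 0.5), centred on each gene's mean, over the 6 libraries and 11541 genes with a mean of at least 1 FPKM. They were ID1, which blocks DNA binding by helix-loop-helix partners (0.14), SLC1A4, a carrier of neutral amino acids (0.14), ACTA2, smooth muscle actin (0.15), NIBAN1, a stress-induced gene (0.16), and RNF144B, a ubiquitin ligase gene (0.16). ID1 had 38.2, 35.1 and 43.3 FPKM in shMETTL1 libraries, against 13.2, 18.95 and 15.3 FPKM in shscramble libraries. The highest of each group were shMETTL1 replicate 3 and shscramble replicate 2, as for NUDT8, a likeness that the search itself favours. Among the members the closest to NUDT8 was NUDT19, at 0.68, in place 3079.

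Further Nudix genes outside the members were read from a list of 11, of which 8 were tested. None was called by limma, 2 of 8 had an unadjusted p under 0.05 (both lower), beside 14.2% of all genes, and 1 of 7 was called by edgeR, beside 6.33% of all genes. The gene that edgeR called was NUDT6, with 6.68, 10.9 and 9.84 FPKM in shMETTL1 libraries, against 11.9, 19.8 and 14.4 FPKM in shscramble libraries. Its groups did not overlap, and its log2 fold change was -0.71 by limma (adjusted p = 0.282), -0.52 if shscramble replicate 2 was left out, and -0.85 by edgeR (adjusted p = 0.0378; 0.0204 to 0.523 over the alternatives). NUDT11, which like NUDT3 cleaves diphosphoinositol polyphosphates, had 1.85 ± 0.63 FPKM in shMETTL1 and 3.81 ± 1.13 FPKM in shscramble cells (SD, n = 3 each; adjusted p = 0.307 by limma). NUDT4, of the same activity, had 44.2 ± 3.45 FPKM in shMETTL1 and 38.1 ± 3.49 FPKM in shscramble cells (SD, n = 3 each; adjusted p = 0.542 by limma). NUDT14, NUDT17, NUDT22 and DCP2 had log2 fold changes between -0.34 and 0.33, and their lowest adjusted p by limma was 0.669. NUDT10 was listed at 0 in every library, NUDT13 at 0 in all but shMETTL1 replicate 1 (0.193 FPKM), and NUDT18 was not analysed here.

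The 8 lists of genes that work beside the members, the further Nudix genes included, held 133 tested genes. None was called by limma. An unadjusted p under 0.05 was reached by 12% of them, 7 with higher and 9 with lower values, beside 14.2% of all genes tested. Counts gave 4 calls by edgeR, 4 by DESeq2 and 6 by limma on log2 CPM, where these called 712 of 11248, 704 of 14908 and 726 of 11248 genes. Their median log2 fold change was 0.04.

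Among the 15 tested genes of CoA synthesis, transport and turnover, 4 had an unadjusted p under 0.05 (2 higher, 2 lower), with 0 calls by limma, 1 by edgeR and a median of -0.07. PANK1, a pantothenate kinase of the first step of CoA synthesis, had 23.97, 25.5 and 27.6 FPKM in shMETTL1 libraries, against 15.3, 8.25 and 10.8 FPKM in shscramble libraries. Its groups did not overlap. The log2 fold change was 1.17 by FPKM (limma, adjusted p = 0.0886) and 0.62 by edgeR (adjusted p = 0.0431; 0.0296 to 0.281 over the alternatives), and its ratio of count to FPKM differed 2.15-fold between libraries. PANK4 showed the same gap between the columns, with a log2 fold change of 0.72 by FPKM (limma, adjusted p = 0.19), 0.89 if shscramble replicate 2 was left out, and 0.06 by edgeR (adjusted p = 0.891; 0.0696 to 0.937 over the alternatives). ACOT13, an acyl-CoA thioesterase, had 31.6 ± 0.12 FPKM in shMETTL1 and 43.7 ± 4.9 FPKM in shscramble cells (SD, n = 3 each; adjusted p = 0.24 by limma).

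The 17 tested genes of mRNA decapping and 5' decay had a median of 0.16, with 13 positive values. Limma called none and edgeR 1, and 2 higher and 1 lower gene had an unadjusted p under 0.05. DDX6, a helicase that activates decapping, had 130.5 ± 2.21 FPKM in shMETTL1 and 105 ± 7.27 FPKM in shscramble cells (SD, n = 3 each; adjusted p = 0.312 by limma). It was called in 3 of 17 alternatives, among them DESeq2 (adjusted p = 0.0158; 0.0158 to 0.561 over all). DXO, which removes incomplete caps, had 9.47 ± 1.41 FPKM in shMETTL1 and 5.27 ± 1.68 FPKM in shscramble cells (limma, adjusted p = 0.243, with a log2 fold change of 0.82, or 1.03 without shscramble replicate 2). The estimated counts of DXO overlapped between the groups, and edgeR gave a log2 fold change of only 0.26 (adjusted p = 0.678). Its ratio of count to FPKM differed 2.47-fold between libraries. LSM4, of the ring that binds decaying mRNA, had 85.7 ± 5.85 FPKM in shMETTL1 and 105.5 ± 3.39 FPKM in shscramble cells (adjusted p = 0.343 by limma). The gene that edgeR called was the exonuclease gene XRN1, and its sign differed between the columns, at 0.07 by FPKM and -0.54 by edgeR (adjusted p = 0.0262; 0.00341 to 0.977 over the alternatives).

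In the inositol pyrophosphate list, where NUDT3 acts, 1 of 8 tested genes was lower at an unadjusted p under 0.05, none was called by limma and 1 by edgeR, with a median of -0.15. This gene was IPMK, an inositol polyphosphate kinase, with 2.76, 2.55 and 2.24 FPKM in shMETTL1 libraries, against 5.32, 4.98 and 5.09 FPKM in shscramble libraries. The groups were narrow and far apart, and edgeR gave a log2 fold change of -1.07 (adjusted p = 0.00199, 5.82e-05 to 0.413 over the alternatives; 0.178 by limma on FPKM). The log2 fold changes of PPIP5K2 and MINPP1 were -0.36 and 0.49, and limma called neither.

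The remaining lists lay near the median of all genes. In cleavage and polyadenylation, the process of NUDT21, none of 19 tested genes was past an unadjusted p of 0.05 or called by limma or edgeR, and the median was 0.04. The lowest p-values were those of the poly(A) polymerase gene PAPOLA, the endonuclease gene CPSF3 and FIP1L1, with log2 fold changes of 0.29, -0.26 and -0.30. In NAD and ADP-ribose metabolism 1 of 21 was lower at an unadjusted p under 0.05 (median 0.03, none called by limma or edgeR). This was PARP1, the main poly(ADP-ribose) polymerase, at -0.37, which DESeq2 called (adjusted p = 0.0364; 0.0364 to 0.544 over the alternatives), and PARG, which degrades its product, and ADPRS were at -0.48 and 0.65. Among 15 genes of nucleotide pool cleaning and oxidised guanine repair 3 had an unadjusted p under 0.05, 1 higher and 2 lower (median 0.01, none called by limma or edgeR). RRM1, of ribonucleotide reductase, was at -0.51, HPRT1, of purine salvage, at -0.65 and DCTPP1, which removes modified dCTP, at 0.55. For RRM1 the estimated counts overlapped between the groups, and edgeR gave only -0.19 (adjusted p = 0.334). Among 31 peroxisome genes 2 were higher at an unadjusted p under 0.05 (median 0.02, none called by limma or edgeR), with the peroxin gene PEX13 at 0.47 (called in 2 of the 17 alternatives, limma on log2 CPM and edgeR without a filter) and the transporter gene ABCD3 at 0.34.

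**Figure D5:**
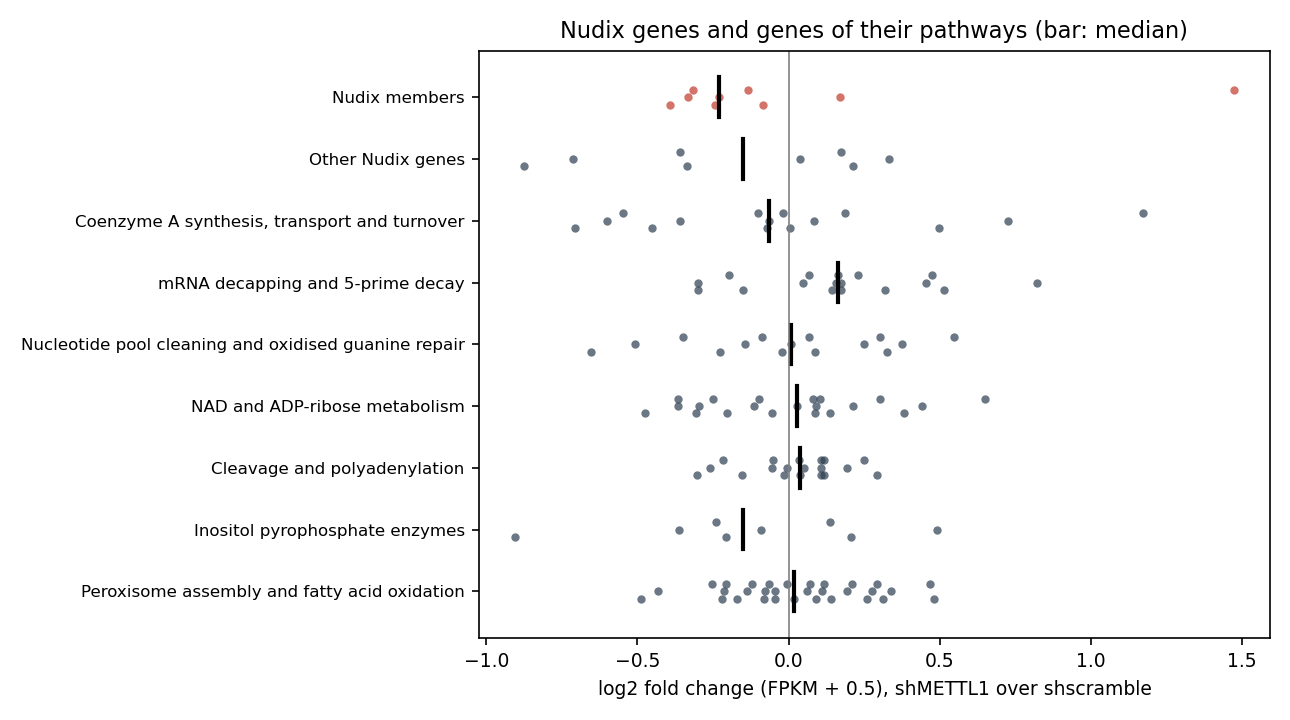
Log2 fold change (FPKM + 0.5, shMETTL1 over shscramble) of each tested gene in the Nudix set and in 8 lists of related genes, 1 point a gene, with the median as a black bar. NUDT8 is the point at 1.47, and the medians lie between -0.23 for the Nudix set and 0.16 for decapping and 5' decay.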

How the data were processed

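RNA was sequenced from 3 shMETTL1 and 3 shscramble LNCaP-AI libraries. Per the labels, the processing notes of the submitters name cutadapt 1.9.3, HISAT2 2.0.4, Cufflinks, Cuffdiff and hg19, with no role or order. The authors deposited for each library FPKM values, relative to transcript length and mapped fragments, and estimated counts per gene, mostly fractional. The totals of these estimated counts deposited by the authors differ little between libraries, so they may have been scaled to a common depth, and no counting interval was computed. Symbols were paired by Ensembl identifier for 19434 genes (95.7%). Positions are from GENCODE on GRCh38, since the files hold none.

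Log2(FPKM + 0.5) was fitted with limma 3.58.1 in R 4.3.3 (trend, robust prior, no pairing) for 12156 genes with a mean of at least 0.5 FPKM, with Benjamini-Hochberg adjustment over all of them and calls at 0.05, two-sided. Estimated counts, rounded to whole numbers, went as alternatives into edgeR 4.0.16 (quasi-likelihood), DESeq2 1.42.0 and limma on log2 CPM (prior count 2). The fits were tested on simulated data with large planted differences and a fixed length per gene. That simulation does not cover a ratio of count to FPKM that varies between libraries. The rule for named genes took all 10 members, METTL1, the tested further Nudix genes, up to 3 genes of each list with the smallest p, the neighbours of NUDT8 and the 5 genes with the pattern nearest to it. Genes called only by edgeR and the genes overlapping a member were added after their values were seen. Members and lists were chosen with earlier results of these data known. Protein sequences were not used here. Some genes that the rule takes are not reported here.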

Additional observations from a re-analysis of the deposited data

How the results depend on the processing

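The 9 tested members moved by less than 1 SD in log2 (the gene's own SD within groups) in all 17 alternatives. In many of these no other outcome was possible. The FPKM filters and the replicate block leave the log2 fold change as it is, and leaving out 1 library of 3 cannot move it by that SD. The sign turned only for NUDT1 (without shMETTL1 replicate 1 or shscramble replicate 1) and NUDT5 (without shMETTL1 replicate 2). The number of members called, 1 in the main fit, was 0 with a pseudocount of 0.1, without a filter on low values and with the replicate block, between 0 and 1 with 1 library left out, and 1 in the others, the thresholds of the study included (8.97% of all genes passed those). The number of all genes called, 15, became 4 without a filter and 6 with the replicate block, and ran from 3 to 189 with 1 library left out. It was 189 without shscramble replicate 2, 3 without shMETTL1 replicate 1 or shscramble replicate 3, 4 without shMETTL1 replicate 2 or shscramble replicate 1, and 6 without shMETTL1 replicate 3. It was 712 by edgeR, 1094 by edgeR without a filter, 704 by DESeq2, 726 by limma on log2 CPM and 1090 at the thresholds of the study (unadjusted p under 0.05 and a fold above 1.5). The genes called in the 8 lists, 0 in the main fit, were 4 by edgeR, 8 by edgeR without a filter, 4 by DESeq2 and 6 by limma on log2 CPM. METTL1 was called by edgeR (log2 fold change -1.36), edgeR without a filter (-1.36), DESeq2 (-1.37) and limma on log2 CPM (-1.35). The labels give the groups shared replicate numbers, but deviations of same-numbered libraries correlated at 0.00, 0.05 and -0.02, so the numbers were not taken as pairs. Depth limits NUDT7, NUDT8 and NUDT1, which rest on at most 1.87, 53.8 and 50.5 estimated counts in a library. It also limits METTL1, which rests on at most 65.15.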
